A study of Mus musculus with 12 samples.

Results

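Liver gene expression was compared between male mouse offspring that met an obesogenic diet both through their dam and after weaning, and offspring that met it at neither stage. In the group names the first letter is the dam's diet and the second the offspring's (O for obesogenic, C for control), so the comparison is OO with CC. It used 6 of the 11 libraries of the series, 3 labelled OO and 3 labelled CC, and asked what exposure at both stages together does against no exposure. All genes of the table entered it except 6 that are listed at exactly 0 in every library of a group, which left 12080 of 12086 genes.

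All animals were wild-type C57BL/6 males whose livers were taken, after fasting, at 12 weeks of age (postnatal day 84). In CC, dams and offspring ate a standard chow with 7% simple carbohydrate and 3% lipid by weight. In OO, dams ate an obesogenic diet with 10% simple carbohydrate and 20% lipid, together with sweetened condensed milk (55% simple carbohydrate, 8% lipid, 8% protein), through pregnancy and lactation, and their sons were put on the obesogenic diet at weaning on day 21. The labels do not say separately whether the sons also had the milk. The groups exposed at a single stage, CO (control dam, obesogenic offspring diet, 2 libraries in the table) and OC (obesogenic dam, control offspring diet, 3 libraries), share the fit and are given beside OO and CC. All litters were set to 6 pups on day 3, and the sources used here do not tie animals to litters, so p-values measure the spread between these libraries.

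Some of the genes that differed belong to a few well-known systems of the liver, while 30 of those called higher and 15 of those called lower are in none of the lists used. Interferons are antiviral cytokines that signal through a complex of transcription factors, among them Irf9, to a short DNA element before a large set of genes, the interferon-stimulated response element. Those genes encode sensors of foreign RNA and DNA, enzymes that block viral growth, guanylate-binding GTPases and parts of the machinery that shows peptides to T cells. The liver also clears ammonia through the urea cycle, degrades amino acids, and makes glucose in the fasted state, largely in the hepatocytes around the portal vein. It makes bile acids from cholesterol and secretes hepcidin (Hamp), the hormone that limits iron export into the blood and is itself switched on by the signalling protein Bmp6. In whole liver, fewer cells of a type and less RNA per cell cannot be told apart.

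Values are scaled counts, close to CPM, the counts in a library brought to a common depth. The depth recovered from them was 3976158 reads in OO.1, 27837609 in OO.0 and between 4575514 and 7969056 in the other 9 libraries. A floor of 3 reads corresponds to a value of 0.1 to 0.829, which covers counting error only. Hepatocyte markers summed to between 43756 and 54798 in the 6 libraries compared. Exocrine pancreas transcripts were high in CC.1, where 17 markers summed to 1049, against 7.46 to 151 in the other 5 libraries compared. Among the libraries that only share the fit, this sum was higher still in OC.0 (7069) and CO.1 (4475). The neutrophil markers summed to 938 in CO.1 and 29.2 in CO.0. Skeletal muscle transcripts were high in CC.0 and OO.0, with sums of 116 and 213 against 4.70 to 12.9. In OO.1 the gene Lars2 took 12.9% of all values. The 6 genes set aside are Serpina1b, Serpina1d, Gm8893 and Gm24105, listed at 0 in OO, and Mup17 and mt-Rnr2, listed at 0 in CO and OO. Some are abundant elsewhere: mt-Rnr2 was at 50664, 43529 and 51009 in CC and 43306, 45424 and 45089 in OC. Serpina1b was at 2559, 2581 and 2607 in CC, and Serpina1d at 1419, 1434 and 1221. Whether the libraries of the groups were processed differently before deposition was not tested.

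Interferon-stimulated genes made up 28 of the 61 genes higher in OO. The list that defines them was first written after these data had been seen, so this count is a description. The 32 genes lower in OO included hepcidin, its inducer Bmp6, 3 urea cycle enzymes and 4 genes of bile acid synthesis and transport. With limma's moderated test and Benjamini-Hochberg adjustment at 0.05, the genes called higher were 0.505% of those tested, those called lower 0.265%, and the 93 together 0.77%. In each of the 93 genes the 3 OO libraries did not overlap the 3 CC libraries, which was so in 21.9% of all genes tested. Because this holds for every called gene, it adds nothing to a call where it is repeated below. A fold above 2, on the log2(value + 0.5) scale used for every fold here, was seen in 41 of the higher and 22 of the lower genes. At an unadjusted p under 0.05 there were 1792 of 12080 genes, in either direction, where chance gives 604. Counts of list genes at that threshold, given below, are to be read beside this share. The median log2 fold of all genes was 0.01. Many calls lay close to the threshold: 21 of the higher and 13 of the lower genes had an adjusted p between 0.045 and 0.05. Over all 12080 genes, edgeR called 67 higher and 29 lower, voom 60 and 34, and DESeq2 196 and 127. List counts from these tools, given below, are to be read beside those totals.

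The number of calls rested on single libraries. Leaving out CC.0 left 0 genes called by limma (1152 at an unadjusted p under 0.05), CC.2 left 2 (Htatip2 and the unnamed ENSMUSG00000054588), OO.2 left 8, OO.0 left 23, OO.1 left 42, OC.2 left 53 and OC.0 left 56, whereas leaving out CC.1 gave 170. Because CC.0 ends every call, adjusted p-values without CC.0 are given below beside the leading genes.

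**Figure D1:**
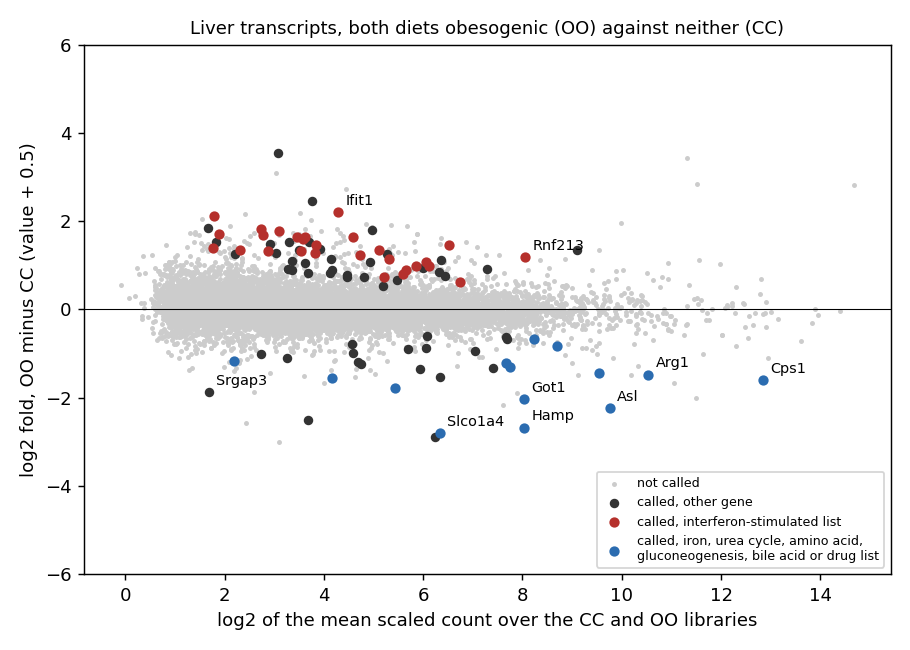
Log2 fold, OO minus CC, of 12080 genes against the log2 mean scaled count over the 6 libraries, with the 93 called genes as large points. The called genes of the interferon-stimulated list (red) all lie above 0, and those of the iron, urea cycle, amino acid, gluconeogenesis, bile acid and drug lists (blue) all lie below it.

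Among the transcription factors of the interferon pathway, Irf9 was at 33.2, 39.5 and 32.1 in CC and 66.8, 50.8 and 67 in OO and rose 1.74-fold (limma adjusted p = 0.048). Irf7, which drives the induction of interferon genes themselves, was at 13.9, 25.1 and 19.6 in CC and 61, 42.3 and 46.1 in OO and rose 2.55-fold (limma adjusted p = 0.039). Irf9 and Irf7 lie outside the rule for named genes and were chosen after their values were seen. In both, the lowest OO library lay above the highest CC library. Irf1, a factor of the interferon-gamma response, had a log2 fold of 0.15 and was not called (limma adjusted p = 0.81).

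Several proteins that act against viruses or mark other proteins during infection rose. Ifit1, which binds foreign RNA, was at 3.8, 9.72 and 6.5 in CC and 34, 19.1 and 44.4 in OO. It rose 4.62-fold (log2 2.21 ± 0.36 SE, limma adjusted p = 0.023, 0.12 without CC.0), the largest rise among the genes of the interferon list. The groups did not overlap, and OO.1 was the lowest OO library. Oas2, an enzyme that makes the second messenger for RNA decay, was at 0.317, 1.5 and 1.38 in CC, where CC.0 lay under its floor of 0.476, and at 6.85, 6.08 and 4.58 in OO, a 4.31-fold rise (limma adjusted p = 0.023). Isg15, a ubiquitin-like protein attached to other proteins during infection, was at 2.69, 3.55 and 2.35 in CC and 12.6, 6.08 and 13.6 in OO and rose 3.2-fold (limma adjusted p = 0.024). Herc6, the mouse ligase thought to attach Isg15, was at 7.61, 16.1 and 11.3 in CC and 38.2, 32.6 and 37.7 in OO, 3.14-fold higher (limma adjusted p = 0.018). As in every called gene, the groups did not overlap in these genes.

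Zbp1, a sensor of unusual nucleic acids that can trigger cell death, was at 2.22, 5.24 and 3.73 in CC and 14.4, 12.2 and 13.4 in OO, a 3.41-fold rise (limma adjusted p = 0.036). Ifi44, long used as an interferon signature gene, rose 3.56-fold, from 2.22, 3.55 and 2.21 in CC to 12.2, 9.4 and 10.3 in OO (limma adjusted p = 0.014). Cmpk2, a mitochondrial nucleotide kinase, rose 3.04-fold, from 3.8, 7.29 and 6.22 in CC to 19.4, 15.5 and 19.3 in OO (limma adjusted p = 0.023). These 3 genes too had no overlap between the groups. Rnf213, a very large ubiquitin ligase, had the largest absolute rise of the called genes of the list, from 149, 177 and 155 in CC to 422, 291 and 399.8 in OO, 2.28-fold (limma adjusted p = 0.012, 0.083 without CC.0). Trim30a and Trim12c, members of a family of restriction factors, rose 2.41-fold and 2.49-fold (limma adjusted p = 0.012 for both), with Trim30a at 6.97, 8.79 and 8.57 in CC and 22.5, 16.9 and 21.6 in OO. Trim12c was at 5.23, 7.67 and 6.5 in CC and 15.6, 16.6 and 17.8 in OO.

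Gbp3, a guanylate-binding GTPase that attacks the membranes of intracellular pathogens, was at 3.49, 8.98 and 5.25 in CC and 18.2, 14.4 and 23.5 in OO and rose 3.13-fold (limma adjusted p = 0.037). Ifit3 and its near-identical copy Ifit3b rose 3.14-fold and 3.28-fold (limma adjusted p = 0.048 and 0.036), with Ifit3 at 3.96, 5.98 and 4.7 in CC and 17.2, 10.5 and 23.4 in OO. How reads were divided between such copies is not known from the sources used here, so the values of single Ifit3, Gbp, Oas and Trim30 family members are uncertain. The interferon list was first written after these data had been seen, so its shares describe the list and are no independent support. Over the whole list, 28 of 53 measured genes (52.8%, against 0.505% of all genes) rose and 0 fell. A fold above 0 was seen in 53 of 53, with a median of 1.18 against 0.01 for all genes. OO lay above CC without overlap in 46 of the 53, against 11% of all genes. Among the genes not called, Usp18, which removes Isg15, had a log2 fold of 1.66 (limma adjusted p = 0.056), Iigp1 1.15 (0.052) and Trim25 0.04 (0.94).

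The mean log2 level of the 53 genes, set to 0 at the CC mean, was -0.23, 0.27 and -0.05 in the CC libraries and 1.27, 0.93 and 1.25 in the OO libraries. The number of list genes called was 0 without CC.0 or CC.2, 1 without OO.2, 4 without OO.0, 33 without CC.1, 18 with only the 6 libraries in the fit, 31 with edgeR and 43 with DESeq2, and the median stayed between 0.96 and 1.44 in all alternatives run. Markers of Kupffer cells and macrophages were also more abundant in sum, at 579 to 762 in CC and 933 to 959 in OO for 18 genes. Of these, 17 had a fold above 0 and were not called by limma (11 higher at an unadjusted p under 0.05), edgeR or voom, and DESeq2 called 1 of them, Mpeg1, as higher. The 5 neutrophil markers measured summed to 9.95 to 16.3 in CC and 20.6 to 45.8 in OO, and limma called 0 of them. Their largest log2 fold, 1.82, was that of Lcn2, which is also on the acute phase and iron lists. S100a8 had means of 0.596 in CC, with CC.2 under its floor of 0.415, and 1.95 in OO. Csf3r had means of 2.8 and 3.9, with overlap. The part of macrophages and neutrophils in the interferon result was not tested.

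**Figure D2:**
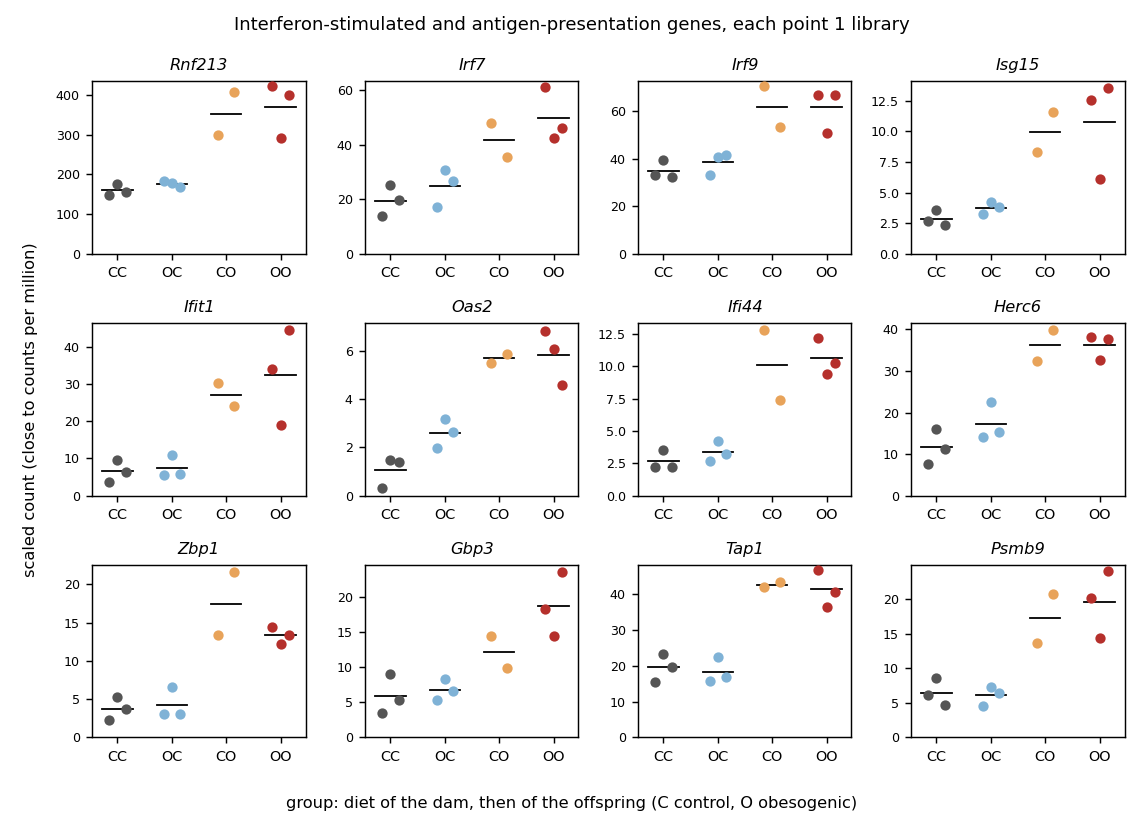
Scaled counts (vertical axes, from 0) of 10 interferon-stimulated genes and 2 antigen-presentation genes in the 11 libraries, by group, with points for libraries and lines for group means. In each of the 12 genes, as in every gene called higher, the OO points lie above the CC points. Rnf213 is at 149, 177 and 155 in CC against 422, 291 and 399.8 in OO.

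The interferon-stimulated response element could be looked for in the RefSeq promoters (GRCm38.p6, 250 bases before to 50 after each start) of 23 of the 28 called interferon genes. The letters GAAANNGAAA, read on both strands, occur in 11 of these 23 genes (47.8%), in 9 of 15 list genes that were not called (60%), in 3.88% of all 9181 tested genes with a promoter and in 3.44% of the 32851 promoters of the table. A match is a description of letters, and overlapping matches were counted singly. The windows of 5 called genes are shown because each carries the element, on either strand, within a short distance of the start of a gene whose values are described here. Capitals mark the matched bases, and each window runs 5′ to 3′ on the strand of its gene.
Isg15: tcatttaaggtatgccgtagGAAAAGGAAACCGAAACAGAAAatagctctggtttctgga
Ifit1: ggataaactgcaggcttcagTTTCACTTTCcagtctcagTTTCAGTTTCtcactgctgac
Gbp3: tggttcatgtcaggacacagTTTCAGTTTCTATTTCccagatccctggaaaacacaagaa
Irgm2: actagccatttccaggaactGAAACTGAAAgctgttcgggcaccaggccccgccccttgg
Rsad2: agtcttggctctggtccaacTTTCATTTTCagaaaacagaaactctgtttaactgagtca
These windows lie at chr4:156200857-156200916 (minus strand), chr19:34640765-34640824 (plus), chr3:142559979-142560038 (plus), chr11:58214893-58214952 (plus) and chr12:26456533-26456592 (minus), all upstream of the annotated start. Isg15 holds 3 overlapping matches that begin 78, 72 and 66 bases before its start, Ifit1 has 2 separate ones at 104 and 85, and Gbp3 2 overlapping ones at 45 and 39. Irgm2, an immunity-related GTPase, rose 1.98-fold from 33.9, 51.2 and 32.5 in CC to 72.2, 83 and 74.8 in OO (limma adjusted p = 0.036). Rsad2, whose product viperin makes a chain-ending nucleotide, rose 2.35-fold from 15.2, 17 and 14 in CC to 38.5, 27.9 and 45.9 in OO (limma adjusted p = 0.048). Both were chosen after their values were seen, for the sequences they show.

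Of the 22 measured genes of MHC class I antigen presentation, 2 rose (9.09%, against 0.505% of all genes) and 0 fell. The list median was 0.31 against 0.01 for all genes. Both that rose prepare peptides for display. Tap1, a subunit of the peptide pump into the endoplasmic reticulum, was at 15.5, 23.4 and 19.8 in CC and 46.6, 36.5 and 40.7 in OO, 2.1-fold higher without overlap (log2 1.07 ± 0.17, limma adjusted p = 0.023, 0.12 without CC.0). Psmb9, an immunoproteasome subunit encoded beside it, was at 6.18, 8.6 and 4.7 in CC and 20.2, 14.4 and 24 in OO, 2.88-fold higher, again without overlap (limma adjusted p = 0.028). Their partners Tap2 and Psmb8 had log2 folds of 0.81 and 0.84 and were not called (limma adjusted p = 0.086 and 0.12). The display molecules themselves were not called: H2-K1 was at 948 ± 69.2 (SD, n = 3) in CC and 924 ± 55.1 (SD, n = 3) in OO, H2-D1 had a log2 fold of 0.13, and their light chain B2m 0.24. DESeq2 called 5 genes of this list, all higher, against 196 of all 12080 genes.

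Hepcidin was the gene of the iron list that differed most. Hamp (ENSMUSG00000050440) was at 416, 466 and 455 in CC and 31.2, 106 and 98.7 in OO, so all OO libraries lay far below all CC libraries, and OO.0 was the lowest. It fell 6.41-fold (log2 -2.68 ± 0.35 SE, limma adjusted p = 0.012, 0.068 without CC.0). CC.0 and OO.0, the libraries with the most muscle transcripts, were left out together in a fit added after the data were seen. Hamp then had a log2 fold of -2.16 (limma adjusted p = 0.00026) and was 1 of 2 genes called. Synj2, a phosphoinositide phosphatase, was the other. That fit drops OO.0, the OO library farthest from the others for Hamp, and leaving out OO.0 alone gave a limma adjusted p of 2.5e-05. The small p is therefore no added support for the call. Reads of Hamp2, a near-identical copy, cannot be kept apart from those of Hamp with certainty, and Hamp2 was listed at 2.8 ± 2.3 in CC and 7.41 ± 6.44 in OO (SD, n = 3 each). Bmp6, the signal that induces hepcidin and is made mostly by liver endothelial cells, was at 6.82, 7.29 and 5.53 in CC and 2.57, 2.21 and 3.1 in OO. It fell 2.25-fold without overlap (limma adjusted p = 0.026, 0.13 without CC.0). The endothelial markers as a whole had a median log2 fold of 0.05, and 0 of their 14 genes were called by limma, edgeR, voom or DESeq2. By limma, 2 of the 14 had an unadjusted p under 0.05, a share close to that of all genes (1792 of 12080).

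Other targets of the same signalling route, Id1, Smad7 and Atoh8, had log2 folds of -0.95, -0.35 and -0.64 and were not called (limma adjusted p = 0.4, 0.68 and 0.28). Of the 26 iron genes measured, 2 fell (7.69%, against 0.265% of all genes) and 0 rose. The list median was -0.08, which quantile scaling moved to 0.00. The exporter that hepcidin acts on, Slc40a1, was at 243 ± 23.3 in CC and 191 ± 54.3 in OO (SD, n = 3 each) and was not called (limma adjusted p = 0.41), nor was Tmprss6, the protease that restrains hepcidin, with a log2 fold of 0.14. The hepcidin promoter is shown for the letters GGCGCC, the core of a BMP response element, which begin 109 bases before the start at chr7:30944099-30944158 (minus strand, GRCm38.p6, RefSeq) and are in capitals.
Hamp: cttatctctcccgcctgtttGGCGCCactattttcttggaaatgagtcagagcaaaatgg
The same letters occur in 11.9% of all promoters of the table and in 20.3% of those of tested genes, and are not in the Bmp6 window.

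In the urea cycle, 3 of 9 measured genes fell (33.3%, against 0.265% of all genes) and 0 rose. The list median was -0.73 against 0.01 for all genes. Asl, which splits argininosuccinate into arginine and fumarate, was at 1824, 907 and 1554 in CC and 366, 207 and 323 in OO and fell 4.71-fold (log2 -2.24 ± 0.32, limma adjusted p = 0.016, 0.11 without CC.0). Arg1, which releases urea from arginine, was at 2912, 1523 and 2156 in CC and 766, 638 and 903 in OO and fell 2.79-fold (limma adjusted p = 0.023). Cps1, the entry enzyme that fixes ammonia, had the largest absolute difference of all called genes, from 12532, 8392 and 12334 in CC to 4754, 2745 and 3603 in OO, 3.02-fold (limma adjusted p = 0.048, 0.21 without CC.0). In all of these the groups did not overlap, and CC.1 was the lowest CC library and OO.1 the lowest OO library. Ass1, which makes the substrate of Asl, was at 2284, 1432 and 1699 in CC and 816, 494 and 947 in OO (log2 -1.29, limma adjusted p = 0.069) and the ornithine carrier Slc25a15 had -0.73 (0.074), both not called. Otc had -0.10 and the aspartate carrier Slc25a13 0.02.

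Amino acid catabolism had 2 of 34 measured genes called, both lower (5.88%, against 0.265% of all genes). Of the 34, 30 had a fold below 0, with a median of -0.50. Got1, the cytosolic aspartate aminotransferase that supplies nitrogen to the urea cycle, was at 472, 310.2 and 465 in CC and 156, 61.1 and 104 in OO and fell 4.08-fold (log2 -2.03 ± 0.30, limma adjusted p = 0.018, 0.11 without CC.0). Sdsl, a serine dehydratase-like enzyme, was at 35, 21.5 and 24.5 in CC and 12.7, 6.08 and 8.17 in OO and fell 2.96-fold (limma adjusted p = 0.023). Neither gene overlapped between the groups. Several others just missed the threshold: Etnppl with a log2 fold of -2.17 (limma adjusted p = 0.052), Cth -1.48 (0.054), Tat -1.48 (0.056) and Hal -1.22 (0.07). edgeR called 2 genes of the list, voom 4 and DESeq2 13, all lower.

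In gluconeogenesis, 1 of 14 measured genes fell (7.14%, against 0.265% of all genes) and 0 rose, with a median of -0.47. It was Slc37a4, which carries glucose 6-phosphate into the endoplasmic reticulum for the last step of glucose release, at 342, 208 and 311 in CC and 136, 91.8 and 140.2 in OO (2.32-fold, limma adjusted p = 0.036). G6pc, the phosphatase of that step, had a log2 fold of -1.04 and Pck1, the cytosolic carboxykinase, -0.57, and neither was called (limma adjusted p = 0.21 and 0.5). Markers of periportal hepatocytes share Arg1, Sdsl, Ass1, Hal, Sds, Etnppl, Gls2 and Pck1 with the lists above. Of their 14 genes, 2 were lower (14.3%, against 0.265% of all genes) and 0 higher, with a median of -0.72. As lower, edgeR called 2 of these markers, voom 3 and DESeq2 8. Their summed values were 12153 to 13006 in CC and 6559 to 10702 in OO. The 6 periportal markers outside the urea cycle, amino acid and gluconeogenesis lists were not called by limma, edgeR or voom, with 1 lower at an unadjusted p under 0.05, and DESeq2 called 1, Hsd17b13, as lower. Their log2 folds were -0.47 for Hsd17b13, -0.27 for Aldh1b1, -0.13 for Cdh1, 0.03 for Pigr, 0.10 for Cyp2f2 and 0.27 for Ctsc. Pericentral markers had a median of 0.21, with 0 of 14 called by limma, 4 at an unadjusted p under 0.05, 0 called by edgeR and voom and 1 by DESeq2.

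Bile acid synthesis and transport had 4 of 27 measured genes called lower by limma (14.8%, against 0.265% of all genes) and 0 higher. The list median was -0.06. Slco1a4, an organic anion uptake carrier, was at 235, 89 and 94.7 in CC and 10.1, 12.2 and 43 in OO and fell 7.01-fold (log2 -2.81 ± 0.53, limma adjusted p = 0.041, 0.18 without CC.0). Its groups did not overlap, although CC.0 was far above the other CC libraries and OO.2 above the other OO libraries. Cyp39a1, an oxysterol hydroxylase, was at 95.9, 43.4 and 62.6 in CC and 17.4, 26.5 and 13.1 in OO and fell 3.44-fold (limma adjusted p = 0.027). Cyp27a1, the sterol hydroxylase that starts the acidic route, was at 599, 480.0 and 511 in CC and 301, 273 and 323 in OO, 1.77-fold lower (limma adjusted p = 0.023), and Baat, which joins bile acids to taurine, at 401, 351 and 351 in CC and 239, 196 and 261 in OO, 1.59-fold lower (limma adjusted p = 0.049). These differences were modest beside that of Slco1a4 but also without overlap. Cyp7a1, the rate-limiting enzyme of the main route, was at 610.4, 104 and 324 in CC and 36.2, 35.9 and 303 in OO and was not called (log2 -1.89, limma adjusted p = 0.32). edgeR called 2 of the list as lower, voom 3, DESeq2 4 and the fit on only the 6 libraries 1. DESeq2 also called 2 as higher, the uptake carrier Slco1b2 and Hsd3b7, an enzyme of bile acid synthesis, and 3 were higher at an unadjusted p under 0.05 by limma.

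Drug metabolism had 2 of 37 measured genes lower (5.41%, against 0.265% of all genes) and 0 higher. A fold below 0 was seen in 31 of 37 (median -0.32), with edgeR and voom calling 1 as lower and DESeq2 4. Cyp3a25, a cytochrome P450, was at 1162, 1035 and 1067 in CC and 395, 321 and 496 in OO and fell 2.73-fold (limma adjusted p = 0.048, 0.21 without CC.0). Ces2a, a carboxylesterase, was at 264, 364 and 296 in CC and 142, 104 and 126 in OO and fell 2.48-fold (limma adjusted p = 0.045). The groups were apart in both, but both belong to families of close copies, so the values of single members are uncertain. Cyp3a11 had a log2 fold of -2.01 and was not called (limma adjusted p = 0.078). Cbr1, a carbonyl reductase on the NRF2 list, fell 2.55-fold, from 104, 71.6 and 88.2 in CC to 28.1, 34.6 and 40.0 in OO (limma adjusted p = 0.012, 0.068 without CC.0), the 1 of 19 genes of that list that was called. Hsd17b7, an enzyme of cholesterol synthesis, fell 1.83-fold, from 91.3, 76.7 and 91.3 in CC to 43.7, 47.6 and 49.5 in OO (limma adjusted p = 0.023). It was the 1 of 25 cholesterol synthesis genes called. The called share was 5.26% of the NRF2 list and 4% of this one, against 0.265% of all genes. The medians of both lists (-0.02 and -0.08) lay near that of all genes.

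**Figure D3:**
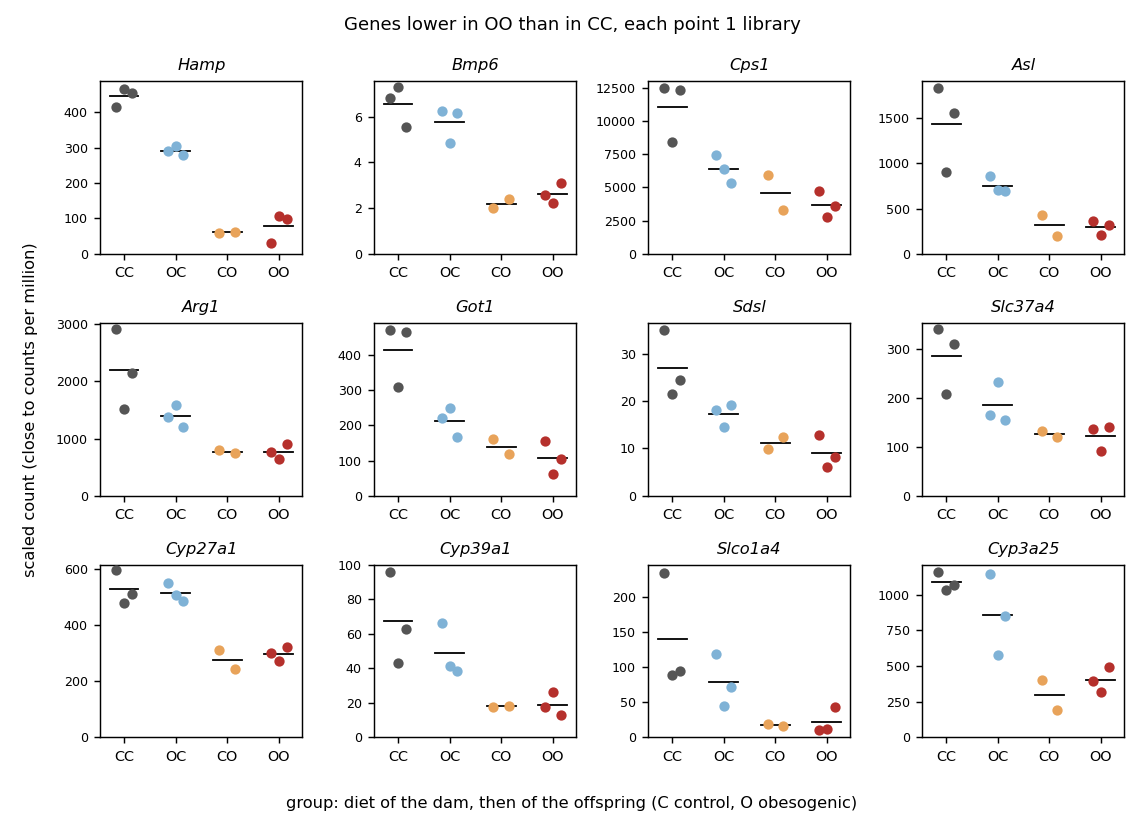
Scaled counts (vertical axes, from 0) of 12 genes lower in OO, in the 11 libraries by group, with points for libraries and lines for group means. In each gene, as in every gene called lower, every OO point lies below every CC point. Hamp is at 31.2, 106 and 98.7 in OO against 416, 466 and 455 in CC.

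Outside the lists, 15 lower and 30 higher genes were called. Htatip2, an oxidoreductase known as a tumour suppressor, had the smallest p of all: it was at 38.5, 37.8 and 37.5 in CC and 14.5, 17.4 and 15.8 in OO, a 2.35-fold fall (log2 -1.23 ± 0.13, limma adjusted p = 0.0053). Its call was kept in 10 of 11 fits that left out 1 library, with an adjusted p of 0.0504 without CC.0. The CC libraries lay within a narrow range, well apart from OO. Srgap3, a GTPase-activating protein, was at 5.55, 5.42 and 4.98 in CC and 0.768, 1.11 and 1.47 in OO (3.66-fold lower, limma adjusted p = 0.012). Eif4ebp3, a repressor of cap-dependent translation, had the largest fall of all called genes, 7.42-fold, from 169.7, 44.6 and 186 in CC to 31.7, 9.14 and 10.8 in OO (limma adjusted p = 0.048), with CC.1 far below the other CC libraries. Nipal1, a magnesium transporter, was at 25.4, 27.3 and 14.2 in CC and 3.07, 3.87 and 3.27 in OO (5.65-fold lower, limma adjusted p = 0.023). Fkbp5, a co-chaperone of the glucocorticoid receptor that glucocorticoids induce, was at 121, 109 and 128 in CC and 35.1, 56.4 and 35 in OO (2.87-fold lower, limma adjusted p = 0.042).

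Among the higher genes in no list, Cd274, the checkpoint ligand PD-L1, was at 1.11, 0.748 and 1.38 in CC and 3.71, 5.81 and 6.21 in OO and rose 3.61-fold (limma adjusted p = 0.023, 0.11 without CC.0). St6gal1, a sialyltransferase acting on plasma glycoproteins, rose 2.19-fold, from 43.1, 65.6 and 45.9 in CC to 102, 116 and 117 in OO (limma adjusted p = 0.023). The groups overlapped in neither gene. Klhdc7a, a kelch domain gene, rose 3.49-fold, from 10.1, 19.1 and 11.5 in CC to 37.4, 39.8 and 69 in OO (limma adjusted p = 0.023). The largest rise of all belonged to an Ensembl gene without a symbol in the table used, ENSMUSG00000054588, at 0.793, 1.68 and 0.415 in CC and 12.9, 13.8 and 21.1 in OO (log2 3.55 ± 0.38, limma adjusted p = 0.0053), which the rule for named genes leaves out and which was chosen after its values were seen. Its CC.2 value was at the floor of 3 reads, so the size of its fold rests on few reads.

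Col5a2, a fibrillar collagen chain, was the 1 of 32 measured extracellular matrix and integrin genes that was called: it was at 3.01, 5.42 and 5.53 in CC and 10.3, 13.5 and 11.6 in OO and rose 2.44-fold (limma adjusted p = 0.048, 0.2 without CC.0). The call was 3.1% of that list, against 0.505% of all genes. The list median was 0.46, 27 of 32 had a fold above 0 and 0 fell, with 19 higher and 1 lower at an unadjusted p under 0.05. edgeR called 1 as higher, voom 0 and DESeq2 6. Col3a1 had a log2 fold of 1.71 and Col1a1 1.69 and neither was called by limma (adjusted p = 0.098 and 0.17), though DESeq2 called both. Outside that list, Serpinh1, the collagen chaperone of the endoplasmic reticulum, was at 5.23, 8.6 and 4.98 in CC and 14.4, 17.4 and 16.7 in OO and rose 2.52-fold (limma adjusted p = 0.032). Nrp1, a co-receptor for semaphorins and vascular growth factors, was at 85.6, 114 and 124 in CC and 216, 199 and 193 in OO and rose 1.9-fold (limma adjusted p = 0.033). In all 3 genes OO lay above CC. Stellate cell markers had a median of 0.26, with 0 of 14 called by limma, 6 at an unadjusted p under 0.05, 0 called by edgeR and voom and 1 by DESeq2.

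The lists of fatty acid and triglyceride synthesis, fatty acid uptake, fatty acid oxidation and lipid droplets had 0 of 96 genes called by limma. At an unadjusted p under 0.05, 14 of the 96 were higher and 6 lower, against 1792 of all 12080 genes in either direction. Of the 96, edgeR and voom called 0, and DESeq2 called Mlxipl and the pantetheinase Vnn1 as higher and Hsd17b13 as lower. In the 14 pathway lists with 0 genes called by limma, which hold 332 genes in all, 45 were higher and 40 lower at an unadjusted p under 0.05, edgeR and voom called 0, and DESeq2 called 8 higher and 5 lower. Mlxipl, which encodes the glucose-sensing factor ChREBP, was at 76.7, 105 and 79.3 in CC and 143, 182 and 129 in OO (log2 0.80, limma adjusted p = 0.058). Its groups did not overlap, as in 21.9% of all genes tested, and it was not called by limma. Of its lipogenic targets, Fasn had a log2 fold of -0.29, Acly -0.18 and Scd1 0.69 (limma adjusted p = 0.69, 0.65 and 0.59). Fatty acid uptake had a median of 0.31, with the carrier Fabp1 at 1610.5, 3704 and 2894 in CC and 5560.2, 5896 and 4476 in OO (limma adjusted p = 0.21) and Cd36 at 81.2, 63.6 and 79.2 in CC and 79.6, 145 and 470.3 in OO (limma adjusted p = 0.29). Fatty acid oxidation had a median of 0.08, fatty acid and triglyceride synthesis 0.01 and lipid droplet genes 0.06.

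Some lists lay mostly on 1 side of 0 without a call by limma, edgeR or voom. DESeq2 called Rps6 and Rpl8 of the ribosomal proteins and Sdhd of oxidative phosphorylation as lower, and Chac1 of endoplasmic reticulum stress, Saa4, Steap4 and Il1rn of the acute phase and the chemokine Cxcl1 as higher. All 28 ribosomal protein genes measured had a fold below 0 (median -0.29), with Rps6 at 60.2, 61.3 and 68.3 in CC and 49, 45.3 and 46.1 in OO (limma adjusted p = 0.086), and so did 33 of 34 oxidative phosphorylation genes (median -0.21). At an unadjusted limma p under 0.05, 19 of the 28 ribosomal protein genes were lower and 0 higher. Of the 34 oxidative phosphorylation genes, 4 were lower and 0 higher at that threshold, which 1792 of all 12080 genes met in either direction. Of the 28 genes of endoplasmic reticulum stress, 25 lay above 0 (median 0.37). Among the 3 below it was Asns, asparagine synthetase, at 3.49, 4.3 and 21.7 in CC and 2.17, 0.276 and 0.49 in OO (limma adjusted p = 0.14). For Asns, OO.1 lay under its floor of 0.829 and OO.2 at its floor of 0.49. Acute phase genes had a median of 0.21, with Saa4 at 57.5, 93.9 and 69.8 in CC and 164, 201 and 224 in OO (limma adjusted p = 0.074) and the metalloreductase Steap4 at 56.3, 78.4 and 46.2 in CC and 145, 164 and 209.8 in OO (limma adjusted p = 0.098). Of the chemokines, Cxcl1, which attracts neutrophils, had a log2 fold of 3.09, from 0.476, 1.87 and 1.24 in CC to 26.9, 7.74 and 10.6 in OO. Its groups did not overlap, as in 21.9% of all genes tested, and limma did not call it (limma adjusted p = 0.097). The CC.0 value of Cxcl1 was at the floor of 3 reads.

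**Figure D4:**
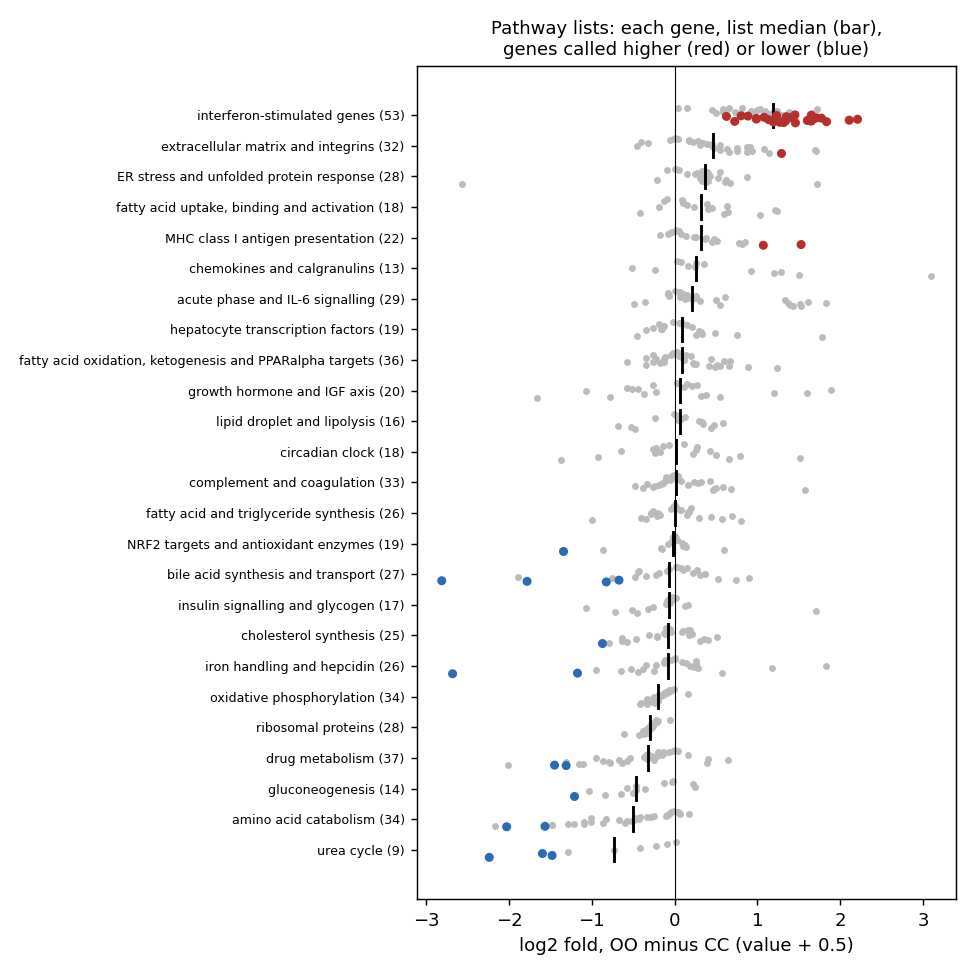
Log2 fold, OO minus CC, of each measured gene of the 25 pathway lists (number measured in brackets), with bars at list medians, called genes in red (higher) or blue (lower) and others in grey. The interferon list, first written after these data had been seen, has a median of 1.18 with 28 genes called. The urea cycle list has the lowest median, -0.73.

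Markers of liver cell types were checked beside these groups. Of 18 Kupffer cell and macrophage markers, 1 was called, and it was lower (5.56%, against 0.265% of all genes). Cd163, the scavenger receptor for haemoglobin, was at 35, 27.3 and 46.3 in CC and 13.7, 19.1 and 13.7 in OO. It fell 2.27-fold without overlap (limma adjusted p = 0.048, 0.19 without CC.0). The other 17 had folds above 0 (list median 0.46), with the Kupffer cell lectin Clec4f at 86.7, 119 and 113 in CC and 152, 141 and 143 in OO (limma adjusted p = 0.3) and Mpeg1 at 42, 52.9 and 58.3 in CC and 86, 92.1 and 130.2 in OO (limma adjusted p = 0.057). Cholangiocyte markers, 7 of 12 measured, summed to 51.7 to 71.8 in CC and 78.7 to 124 in OO. Of 16 T, B and NK cell markers, 3 were in the table. In the 11 marker lists with 0 of 103 genes called by limma, 19 were higher and 1 lower at an unadjusted p under 0.05, edgeR and voom called 0, and DESeq2 called 2 higher and 1 lower. The part of cell composition in the differences above was not tested.

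**Figure D5:**
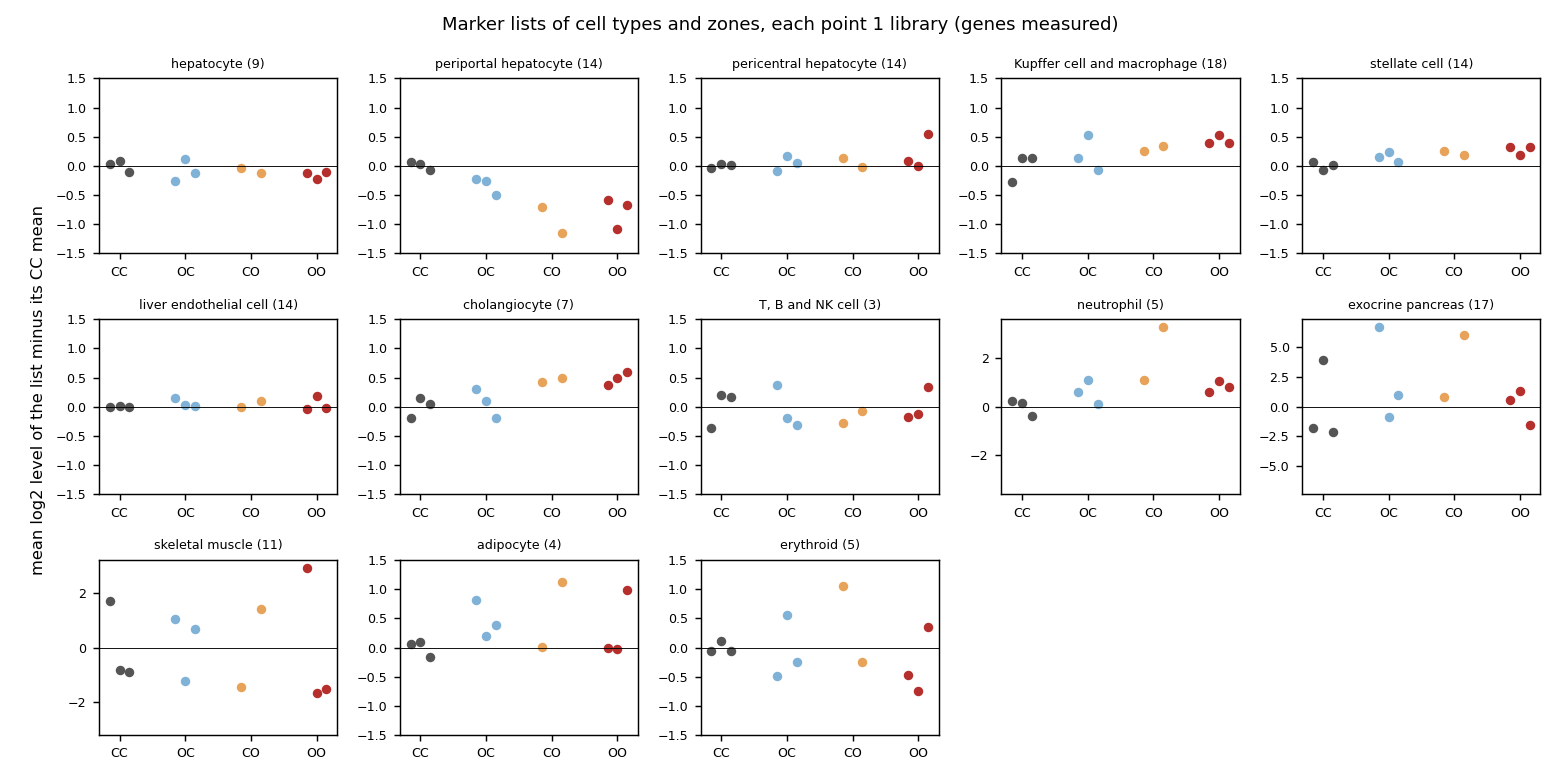
Mean log2 level of 13 marker lists minus its CC mean in the 11 libraries, by group, with a scale of its own for neutrophil, exocrine pancreas and skeletal muscle markers. Periportal markers are lower in the 3 OO libraries than in the 3 CC libraries, Kupffer cell and cholangiocyte markers are higher, and pancreas and muscle markers vary within groups.

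Whether the OO difference departs from the sum of the differences seen with each diet alone was tested by the interaction OO - CO - OC + CC. Limma called 0 of 12080 genes, with 547 at an unadjusted p under 0.05 (604 expected by chance) and a smallest adjusted p of 0.42. EdgeR and voom called 0 and DESeq2 called 2, Steap4 and Gm9968, both below the sum. Among the 93 genes, the smallest interaction p belonged to Nrp1, Hist1h1e and Serpinh1. Nrp1 stood at a mean of 108 in CC, 133 in OC, 308 in CO and 203 in OO (interaction log2 -0.90 ± 0.25, limma unadjusted p = 0.0034). Serpinh1 stood at 6.27, 10.7, 21.6 and 16.2 in the same order of groups (log2 -1.13 ± 0.35, limma unadjusted p = 0.0081). In both genes OO lay below CO. Hist1h1e, a linker histone, was at 68.6, 62.3 and 71.3 in the CC libraries and 34.3, 36.5 and 37.1 in the OO libraries and fell 1.86-fold (limma adjusted p = 0.025). Its means in OC and CO were 51 and 27 (interaction log2 0.83 ± 0.23, limma unadjusted p = 0.0034). None of these interactions passed the adjustment.

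The leading genes can be set beside the groups exposed at a single stage, which share the CC libraries or the diet with this comparison. Of the 2 CO libraries, CO.1 was high in pancreas and neutrophil transcripts, as OC.0 was in pancreas transcripts. Ifit1 had means of 6.67 in CC, 7.44 in OC, 27.2 in CO and 32.5 in OO. The mean log2 level of the 53 interferon genes over CC was 0.00, 0.44 and 0.16 in the OC libraries and 1.15 and 0.96 in the CO libraries, against 0.93 to 1.27 in OO. For the interferon level, CO and OO overlapped, and OC overlapped CC. Hamp had means of 446 in CC, 291 in OC, 60.8 in CO and 78.8 in OO, with OC at 289, 306 and 279, between and apart from both CC and OO. Asl stood at 1428, 752, 313 and 299, and Got1 at 416, 213, 140.0 and 107, with the CO and OO libraries overlapping in both. Htatip2 stood at 37.9, 34.8, 14.2 and 15.9. For Eif4ebp3 all OC libraries, at 21, 41.1 and 21, lay below all CC libraries, as did 1 of the 2 CO libraries (62.3 and 38.1). The interaction of Ifit1, Hamp, Asl, Got1, Htatip2 and Eif4ebp3 had limma unadjusted p-values of 0.98, 0.15, 0.096, 0.3, 0.16 and 0.66.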

How the data were processed

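Liver RNA was measured by TruSeq RNA sequencing, per the labels' protocols. The deposited values are a signal: the authors' gene counts after scaling of each library. This follows from the values, of which 95.7% to 97.3% in a library equal a whole number of reads times a constant (tolerance 0.01). Alignment used Bowtie 1.2.3 and mm8, per the submitters' processing notes. Not given in the sources used here are the read counter, the annotation, the strand setting and how libraries were scaled. The scaling seen in the values closely matched edgeR's default normalization factors, computed from recovered reads. Both were 1.0756 in OO.0 and 0.9096 in OO.1. The column names gave a group but no labelled sample, 0 columns were left unmapped, and 11 libraries were found for 12 labelled samples. Symbols matched 11965 of 12086 Ensembl identifiers. The fixed design assumed normalized values and 12 samples, and its test was kept.

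Limma 3.58.1 (R 4.3.3) was fitted with an intensity trend to log2(value + 0.5) of all 11 libraries with 1 mean per group (7 residual degrees of freedom, 4.67 prior). Genes needed a value of 1 in 3 libraries, which all 12086 met. The contrast was OO minus CC, with Benjamini-Hochberg adjustment over 12080 genes at 0.05, and the code was tested on simulated data. EdgeR 4.0.16, DESeq2 1.42.0 and voom were run on reads recovered in this way and rounded. Other alternatives were pseudocounts of 0.1 and 2, no filter, a mean of at least 5, other scalings, sample weights, a robust variance, the 6 compared libraries alone and each library left out. Fits without CC.1 and OO.1 and without CC.0 and OO.0 were added after seeing the data.

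The comparison and the 38 gene lists were chosen with earlier results of these data known, and the interferon list was first written after these data had been seen. Named genes were the 12 largest rises and falls among called genes with a mean of at least 5 and no overlap, the 5 smallest p and the 5 largest absolute differences in each direction, up to 5 called genes per list (else 2 with the smallest p) and the 3 smallest interaction p among called genes. Identifiers without a symbol, Gm-numbered genes and Rik clones were left out, and some genes the rule names are not reported here. Genes given outside this rule, mostly list members without a call, were chosen after their values were seen. Figures used matplotlib.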

Additional observations from a re-analysis of the deposited data

How the results depend on the processing

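The count of genes called in OO against CC stayed within 1.5 times 93 with edgeR, voom, both pseudocounts and both other scalings. It also did so with a mean of at least 5, the robust variance, the genes at 0 kept and only the 6 libraries. The fit with no filter repeats the main fit, because all 12086 genes met the filter. A similar count does not mean the same genes. Of the 93, edgeR also called 86, voom 79, the fit with quantile scaling 70 and that on only the 6 libraries 49. All 93 kept their direction in these 4 fits. DESeq2 called 323 (196 higher, 127 lower) and sample weights 671 (379 higher, 292 lower). Fits without 1 library called between 0 (CC.0) and 170 (CC.1), with fewer samples in each. Without CC.0 and OO.0, chosen after seeing the data, 2 were called, and without CC.1 and OO.1, 86. The interaction count of 0 became 2 with DESeq2 and 4 with the genes at 0 kept, which were Serpina1b, Serpina1d, Gm24105 and Gm8893. It lay between 0 and 1 in the fits without 1 library, the 1 being Alpk1 without CO.0, where CO is left with 1 library assumed to vary like the others. The causes of these differences were not tested. The median fold of the exocrine pancreas list, 0.11, was -2.25 with edgeR and -0.08 with quantile scaling. Depth limits genes near the floor of 3 reads, up to 0.829 in OO.1. No paired analysis was possible because the column numbers are in no label and pair no samples.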

Other observations

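Some genes called in OO against CC belong to no list and were chosen after their values were seen. Ugt1a9, a glucuronosyltransferase of the Ugt1a family, was at 227, 243 and 252 in CC and 71.6, 91.2 and 131 in OO and fell 2.52-fold (limma adjusted p = 0.048). Agtr1a, the angiotensin receptor, was at 77.5, 79.8 and 86.5 in CC and 59.6, 52.5 and 47.5 in OO and fell 1.53-fold (limma adjusted p = 0.028). Among those that rose, Map3k14, a kinase of the non-canonical NF-kappaB pathway, was at 2.38, 2.8 and 2.35 in CC and 5.58, 6.91 and 7.52 in OO (2.37-fold, limma adjusted p = 0.023). Siglec1, the sialoadhesin of macrophages, was at 12.5, 11 and 13.4 in CC and 21.7, 26.3 and 19 in OO (1.77-fold, limma adjusted p = 0.048). None of these 4 genes overlapped between the groups, and all lost their call without CC.0.

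In lists without a call by limma, a few genes had large differences of their means. The clock gene Arntl was at 35, 18.1 and 22.5 in CC and 11.6, 13.5 and 4.74 in OO (limma adjusted p = 0.19) and its target Dbp at 6.34, 16.5 and 7.32 in CC and 20.1, 20.5 and 48.9 in OO (0.25). The labels give no hour of collection, so the clock genes cannot be set against the time of day. Onecut1, a hepatocyte transcription factor, was at 5.38, 13 and 3.34 in CC and 15.2, 30.7 and 24.4 in OO (limma adjusted p = 0.096). The groups did not overlap in these 3 genes, which was so in 21.9% of all genes tested.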
